A study of Homo sapiens with 8 samples.

Results

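The elements described here are the 165 CEBPB binding sites of the class named Shared_NOPol2 in the deposited table, read after the title of the series as sites bound in both HepG2 and K562 cells without RNA polymerase II. They were chosen by that class name alone, as the native sequences and not their scrambled versions, and make up 165 of the 3095 elements in the table, which holds 1730 sites and 1365 scrambled sequences in 6 classes. The table does not define the class names, and it holds no binding data with which the class could be checked. Each element is named by the position the table gives. The one genome build named, per the submitters' processing notes, is hg19, and nothing ties it to these positions.

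The series asked whether polymerase bound far from promoters separates CEBPB sites that drive transcription from those that do not. Plasmids carrying the elements and a luciferase reporter were transfected with FuGENE into HepG2, a human hepatocellular carcinoma line, and K562, a human leukaemia line. Each line was transfected 2 times, and DNA and RNA were taken from each transfection, which gives 8 libraries in 4 groups of 2. No further treatment or genotype separates the groups, and both lines received the same kind of plasmid library in transient transfection, outside the chromosome.

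CEBPB is a basic leucine zipper transcription factor that binds DNA as a dimer. It acts in liver metabolism, the acute phase response, fat cell formation and myeloid cells, and it binds many more places in a genome than there are genes that respond to it. RNA polymerase II is also found at active enhancers, where it makes short transcripts. In CRE-seq the activity of an element is read from barcodes in the 3′ UTR of the reporter: the reads of a barcode in RNA are set against its reads in DNA from the same cells. Activity is given below as log2 RNA/DNA, scaled so that the scrambled elements centre near 0, so that 1 is a doubling over the typical scramble.

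Each element was tagged with 4 barcodes of 9 bases, and these tags are the only sequences the table holds for it. The tags of 6 elements are shown because the findings turn on whether the tags of an element agree: among the elements with enough tags to be tested, the pair that led in HepG2 alone (chr12:122851539 and chr22:24107550), one high in both lines (chr10:46962660), the highest in K562 (chr21:46388115), an element whose activity came from a single tag (chr3:185435115) and the lowest RNA/DNA in HepG2 (chr3:58523582). They are printed in lower case throughout, since no part of a tag is set apart.
chr12:122851539, tag a: cgcaggttg
chr12:122851539, tag b: cgcatccac
chr12:122851539, tag c: gttagtgtg
chr12:122851539, tag d: tactgaacg
chr22:24107550, tag a: actaccaag
chr22:24107550, tag b: atcagtaac
chr22:24107550, tag c: gtcctgtca
chr22:24107550, tag d: gttatgacg
chr10:46962660, tag a: aagacacgg
chr10:46962660, tag b: ctctgaatc
chr10:46962660, tag c: gtgctcagg
chr10:46962660, tag d: tccaatgct
chr21:46388115, tag a: agaagtctt
chr21:46388115, tag b: cactcgtat
chr21:46388115, tag c: ccagaatat
chr21:46388115, tag d: gtgcttaga
chr3:185435115, tag a: cgagcatcg
chr3:185435115, tag b: ctgtatacc
chr3:185435115, tag c: gatcacggt
chr3:185435115, tag d: ttgaggtgc
chr3:58523582, tag a: cagaatgcc
chr3:58523582, tag b: gacgtgctg
chr3:58523582, tag c: tccgtgtat
chr3:58523582, tag d: ttggctcat

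In HepG2 the mean log2 RNA/DNA of the tags of chr12:122851539 was 2.51 for cgcaggttg, 2.15 for cgcatccac, 2.80 for gttagtgtg and 2.67 for tactgaacg. The same tags gave 0.23, -0.12, 0.22 and 0.39 in K562, so every tag was high in HepG2 and near 0 in K562. The tags of chr22:24107550 gave 2.01, 1.76, 1.14 and 1.86 in HepG2 against -0.17, -0.25, -0.35 and -0.44 in K562. These 4 tags also separated the lines without overlap. The tags of chr10:46962660 lay between 1.29 and 1.78 in HepG2 and between 1.06 and 1.52 in K562, high in both lines. Those of chr21:46388115 lay between 0.47 and 1.06 in HepG2 and between 1.22 and 1.64 in K562, with the K562 values above the HepG2 values.

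The tags of chr3:185435115 did not agree. Only ctgtatacc was high, at 2.59 in HepG2 and 2.27 in K562, while cgagcatcg gave -0.03 and 0.26, gatcacggt -0.60 and 0.27, and ttgaggtgc -0.18 and -0.01. The 4 tags of chr3:58523582 lay between -0.95 and -0.45 in HepG2 and between -0.69 and -0.35 in K562, all below 0 in both lines.

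The 8 libraries held 9965393 to 10193122 reads each, close to equal in depth. A tag was used where it had at least 10 reads in all 4 DNA libraries, and an element was tested where at least 3 of its tags were used. Of the 660 tags of the 165 elements, 513 were used. Of the 147 left out, 99 had at least 10 reads in both first-transfection DNA libraries and fewer in a second-transfection one, and 0 the other way round. Only 2 of the 147 fell short in HepG2 DNA alone and 6 in K562 DNA alone. The tags lost therefore went by the transfection number and not by the cell line, and over all 12380 tags the counts were 1696 and 3. Per the labels, the libraries of 1 replicate experiment shared a sequencing lane, so lane and transfection cannot be told apart.

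By this rule 97 elements had all 4 tags and 19 had 3, which left 116 tested. The other 49 were not tested: 23 had 2 tags, 22 had 1 and 4 had none. Mean DNA reads per library, summed over the used tags, were 64.25 to 13796 with a median of 3072 in the tested elements. In those not tested, summed over all 4 tags whether used or not, they were 39.25 to 3790 with a median of 137. The filter used DNA reads only. Counts below are over the 116 and are not counts over all 165.

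Most of these sites did little in HepG2. Their median log2 RNA/DNA was 0.11 with quartiles of -0.06 and 0.51, and 81 of the 116 lay within 0.5 of 0. The median of all 2332 tested elements was 0.05, and that of the 88 tested scrambles of this class was -0.06. Of the 116, 78 (67.2%) were above 0, 65 of them in both transfections, and 28 were below 0 in both. Values ran from -0.68 to 2.56. The values of the 2 HepG2 transfections followed each other (Pearson r = 0.88, Spearman rho = 0.82 across the 116 elements, which share libraries and are not replicates).

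In HepG2, 23 of the 116 (19.8%, exact 95% interval 13.0 to 28.3% for counting error) were active. An element is called active here where its RNA/DNA passed an adjusted p of 0.05 (edgeR's quasi-likelihood test, Benjamini-Hochberg over 2332 elements) and lay above the 95th percentile of the scrambled elements, a log2 of 0.66 in HepG2. Of all tested elements, scrambles included, 14.0% were active in HepG2, and of all tested sites 21.7%. Of this class's own scrambles 3 of 88 (3.41%) were. The fitted log2 of the 23 ran from 0.70 to 2.57 with a median of 0.99, 1.98-fold, and 11 were above 1. All used tags were above 0 in 17 of the 23. Without the first HepG2 transfection 15 of the 116 were active, and without the second 14.

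The strongest was chr12:122851539, with log2 RNA/DNA of 2.45 and 2.68 in the 2 HepG2 transfections, a fitted 2.57 ± 0.10 (SE; 5.92-fold; edgeR adjusted p = 3.81e-08). Its counts show the size of the signal: 4264 and 4155 DNA reads stood against 15351 and 17097 RNA reads in HepG2, while K562 had 4368 and 4222 DNA reads and 3961 and 4459 RNA reads. Next came chr22:24107550, at 1.67 and 1.64, with a fit of 1.66 ± 0.09 (edgeR adjusted p = 4.11e-07). It was followed by chr10:46962660, at 1.61 and 1.58, with a fit of 1.60 ± 0.06 (edgeR adjusted p = 5.81e-08). These 3 sites had the highest fits in HepG2, and the spread between their transfections was small beside their height.

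A second tier lay between 2.01-fold and 2.53-fold. The values of chr10:14226903 were 1.38 and 1.30 (fit 1.34), and those of chr11:63858713 were 1.17 and 1.42 (fit 1.30). For chr16:87499131 they were 1.33 and 1.14 (fit 1.24), and for chr12:54333570 1.04 and 1.21 (fit 1.13). All used tags of these 4 were above 0, yet those of chr16:87499131 ran from 0.12 to 2.97. The values of chr7:156946065 were 0.97 and 1.16 (fit 1.06), those of chr2:72161813 were 0.91 and 1.18 (fit 1.06), and those of chr20:39135344 were 1.13 and 0.88 (fit 1.01). The least even of this tier was chr8:21350005, at 1.45 and 0.79 (fit 1.15 ± 0.28; edgeR adjusted p = 0.0134), with only 2 of its 3 used tags above 0.

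The other 12 active sites had fits below 1. In falling order they were chr6:52363006, chr19:48226935, chr1:204476229, chr20:34706445, chr11:120271614, chr21:46388115, chr4:107208595, chr9:126690167, chr9:135893950, chr2:74433344, chr3:185435115 and chr3:194018296, from 0.99 down to 0.70. The lowest, chr3:194018296, had 0.72 and 0.69 in its transfections (edgeR adjusted p = 8.57e-05) and 4 of 4 tags above 0. The site with the highest fit that was not called was chr6:107860736, with 1.31 and 1.10 (fit 1.22; edgeR adjusted p = 0.0829). It rested on 373 to 403 DNA reads in HepG2, and its tags ran from -0.47 to 2.99.

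For 4 of the 23, one tag carried the call. Without its highest tag the fit of chr16:87499131 was 0.45 (edgeR adjusted p = 0.174), that of chr8:21350005 was 0.20 (edgeR adjusted p = 0.892), and that of chr20:34706445 was -0.63 (edgeR adjusted p = 0.395). For chr3:185435115 it was -0.07 (edgeR adjusted p = 0.849). The sign of the last 2 turned. The other 19 of the 23 stayed active without their highest tag, and 16 of the 23 did when the median over tags replaced the sum of reads.

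Calls also rested on having both transfections. In HepG2, 9 of the 23 lost the call without one or the other HepG2 transfection: chr11:120271614, chr16:87499131, chr20:34706445, chr2:74433344, chr3:185435115, chr3:194018296, chr7:156946065 and chr8:21350005 without either, and chr9:135893950 without the second. Their values stayed between 0.64 and 1.45, at edgeR adjusted p between 0.0123 and 0.351. For chr3:194018296 the p still passed (0.015 and 0.0123), and the value fell below the scramble percentile of that fit.

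In K562 most of the sites also lay near 0. The median log2 RNA/DNA was 0.05 with quartiles of -0.16 and 0.31, against 0.02 for all tested elements and -0.004 for the class's scrambles. Of the 116, 91 lay within 0.5 of 0, 66 (56.9%) were above 0, 47 were above 0 in both transfections and 33 were below 0 in both. Agreement between transfections was looser than in HepG2 (Pearson r = 0.46, Spearman rho = 0.47 across the 116 elements). In the 58 elements with fewer DNA reads than the median, the median SD between transfections was 0.31 in K562 and 0.14 in HepG2. In the 58 with more it was 0.092 and 0.089. The looser agreement thus lay in the shallow elements, and 18 of the 513 used tags had 0 reads in the second K562 RNA library against none in the first.

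In K562, 13 of the 116 (11.2%, exact 95% interval 6.1 to 18.4%) were active, by the same rule with a scramble percentile of 0.52. Of all tested elements 8.15% were active in K562, and of all tested sites 12.8%. Of the class's scrambles 0 of 88 were, which allows a share of up to 4.11% (upper bound of the exact 95% interval). At an unadjusted edgeR p under 0.05 2 of these scrambles were above that percentile, and by DESeq2 2 were active. The 13 fits ran from 0.54 to 1.51 with a median of 1.002, 2.003-fold, and 7 were above 1. All used tags were above 0 in 11 of the 13. Of the 58 elements with more DNA reads than the median 9 were active, and of the 58 with fewer 4 were.

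The strongest in K562 was chr21:46388115, with 1.60 and 1.41 in the 2 transfections and a fit of 1.51 ± 0.08 (2.85-fold; edgeR adjusted p = 1.52e-06). Its 5897 and 5776 DNA reads stood against 15327 and 12857 RNA reads. The next were chr10:46962660 at 1.25 and 1.27 (fit 1.26) and chr4:107208595 at 1.26 and 1.25 (fit 1.26). In both the transfections were nearly equal. After them came chr9:135893950 at 1.37 and 1.01 (fit 1.20) and chr7:97915700 at 1.19 and 0.94 (fit 1.06), the highest of the sites active in K562 and not in HepG2.

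The values of chr2:72161813 were 0.89 and 1.13 (fit 1.01), and those of chr6:52363006 were 0.87 and 1.12 (fit 1.002). Both sites were active in HepG2 at nearly the same level. The values of chr7:156946065 were 0.70 and 0.92 (fit 0.81), those of chr3:185435115 0.53 and 0.93 (fit 0.74), and those of chr19:48226935 0.85 and 0.61 (fit 0.74). These 3 were active in HepG2 as well. The remaining 3 were weak and not called in HepG2: chr7:116371882 (0.64), chr20:18253228 (0.59) and chr2:48353521 (0.54; edgeR adjusted p = 0.00143). Just outside the call lay chr2:63033501, at 0.43 and 0.55 (fit 0.50), which passed the test (edgeR adjusted p = 0.035) and stayed under the scramble percentile.

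Without its highest tag the K562 fit of chr3:185435115 was 0.37 (edgeR adjusted p = 0.138) and that of chr7:156946065 was 0.79 (edgeR adjusted p = 0.117), and the other 11 stayed active. Leaving out a transfection of either line ended the K562 call of 6 sites in at least one case: chr19:48226935, chr20:18253228, chr2:48353521, chr3:185435115, chr7:116371882 and chr7:156946065. Their values then lay between 0.40 and 0.81, at edgeR adjusted p between 0.00747 and 0.159. The total stayed at 11 in each case.

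Across both lines, 27 of the 116 sites were active in at least one: 9 in both, 14 in HepG2 only and 4 in K562 only. The 9 were chr10:46962660, chr21:46388115, chr4:107208595, chr9:135893950, chr2:72161813, chr6:52363006, chr7:156946065, chr19:48226935 and chr3:185435115. The remaining 89 were active in neither. Over all 2332 tested elements 120 were active in both, 207 in HepG2 only, 70 in K562 only and 1935 in neither. Over all 1286 tested sites the counts were 104, 175, 60 and 947. Across the 116 elements the levels in the 2 lines correlated weakly (Pearson r = 0.37, Spearman rho = 0.42), and these points share their DNA plasmid pool. Across all 2332 tested elements both values were 0.40. Between the 2 K562 transfections of the 116 elements they were only 0.46 and 0.47.

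Being active in one line only does not show that the lines differ, so the difference itself was tested. The RNA/DNA of 19 of the 116 differed between the lines (edgeR interaction term, adjusted p under 0.05 over 2332 elements), 14 higher in HepG2 and 5 higher in K562. Of all tested elements, scrambles included, 12.8% were higher in HepG2 and 3.95% in K562, and of the 116 12.1% and 4.31%, close to that. The HepG2 share was below that of all 1286 tested sites, of which 246 were higher in HepG2 and 68 in K562. Among this class's 88 tested scrambles 3 were higher in HepG2 and 4 in K562. Of the 14 sites active in HepG2 only, 10 were among the 19, and of the 4 active in K562 only, 1 was. Without the first HepG2 transfection 6 of the 116 differed, and without the second also 6.

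The widest gap belonged to chr12:122851539, at 2.45 and 2.68 in HepG2 against 0.09 and 0.33 in K562, a difference of 2.35 ± 0.13 (edgeR adjusted p = 1.83e-06). The gap at chr22:24107550 was 1.91 ± 0.12, with K562 values of -0.32 and -0.18. In both, all HepG2 values lay over 1 log2 unit above all K562 values. The gap at chr12:54333570 was 1.27 (K562 -0.15 and -0.11), at chr11:63858713 1.16 (K562 0.04 and 0.24), at chr10:14226903 1.01 (K562 0.40 and 0.27), and at chr20:39135344 0.91 (K562 0.02 and 0.16). These 6 sites were active in HepG2 with K562 levels near the scrambles, apart from chr10:14226903, whose K562 fit of 0.34 just passed the test (edgeR adjusted p = 0.0498) under the scramble percentile.

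Less evenly measured were chr8:21350005, with a gap of 1.71 ± 0.40 (K562 -0.43 and -0.72), and chr16:87499131, with 1.29 ± 0.29 (K562 0.25 and -0.44). Both had lost the HepG2 activity call without their highest tag. Smaller gaps were those of chr1:204476229 (0.59) and chr9:126690167 (0.55), both active in HepG2 only, and of chr17:49223676 (0.84), chr15:65107352 (0.66) and chr13:97762184 (0.33), active in neither line. At chr17:49223676 one HepG2 tag, ttatcagtt, was at 2.06 and the other 3 lay between -0.87 and -0.13. At chr10:46962660, active in both, HepG2 was higher by 0.34 ± 0.09 (edgeR adjusted p = 0.031).

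At 5 sites K562 was higher. The difference, HepG2 minus K562, was -0.66 ± 0.11 at chr21:46388115 (edgeR adjusted p = 0.00342), -0.57 ± 0.14 at chr7:97915700 and -0.42 ± 0.12 at chr4:107208595. Of these, chr21:46388115 and chr4:107208595 were active in both lines, and chr7:97915700 had 0.44 and 0.55 in HepG2, short of the scramble percentile. The other pair was inactive in both lines. At chr1:3585546 HepG2 had -0.43 and -0.30 and K562 0.09 and 0.18, and at chr1:115299583 HepG2 had -0.20 and -0.10 and K562 0.25 and 0.20, so at both the groups lay on opposite sides of 0.

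Only 5 of the 19 differences held under every alternative run: chr10:14226903, chr11:63858713, chr12:122851539, chr12:54333570 and chr22:24107550. Without one HepG2 or K562 transfection 13 lost the call in at least one case, 8 higher in HepG2 and 5 higher in K562: chr10:46962660, chr13:97762184, chr15:65107352, chr16:87499131, chr17:49223676, chr1:204476229, chr8:21350005, chr9:126690167, chr1:115299583, chr1:3585546, chr21:46388115, chr4:107208595 and chr7:97915700. The differences then lay between 0.27 and 2.003 for the 8 and between -0.68 and -0.33 for the 5, at edgeR adjusted p between 0.0568 and 0.318. Without the highest tag of each element 9 of the 19 lost the call: chr8:21350005, chr9:126690167, chr15:65107352, chr16:87499131, chr1:204476229, chr13:97762184 and chr17:49223676, then at 1.78 down to 0.25, and chr1:3585546 and chr1:115299583, then at -0.37 and -0.30, at edgeR adjusted p between 0.0809 and 0.668. With each transfection as a replicate block, 4 of the 19 lost the call with hardly moved differences: chr13:97762184 (0.33, edgeR adjusted p = 0.0723), chr1:115299583 (-0.38, 0.0516), chr4:107208595 (-0.42, 0.0725) and chr9:126690167 (0.55, 0.0707).

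Few sites were called low, although 28 in HepG2 and 33 in K562 lay below 0 in both transfections. The mirror of the active rule, with the 5th percentile, was met by 4 of the 116 (3.45%) in HepG2, where 2.44% of all tested elements met it, and by 1 (0.862%) in K562, where 1.24% did. Of the class's 88 tested scrambles 2 met it in HepG2 and 0 in K562. The 4 sites in HepG2 were chr3:58523582, chr4:90033500, chr8:128987803 and chr17:77814534, with fits from -0.68 to -0.49. At chr3:58523582 the 4 DNA libraries held 4247 to 4600 reads, and RNA held 1963 and 1715 in HepG2 and 2555 and 2615 in K562. Its K562 fit of -0.51 (edgeR adjusted p = 0.00506) lay just short of the 5th percentile there, -0.52.

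Of the others, chr4:90033500 had -0.69 and -0.47 in HepG2 and -0.61 and -0.43 in K562, low in both lines without a K562 call. The HepG2 values of chr8:128987803 were -0.70 and -0.32 and those of chr17:77814534 -0.32 and -0.69, each with one transfection short of the scramble percentile. These 3 lost the call without a transfection, at values between -0.70 and -0.32 and edgeR adjusted p between 0.0525 and 0.527, and also without their highest tag. In K562 chr2:38875336 had -1.07 and -2.03 on 747 to 799 DNA reads, and 153 RNA reads in the second library. Without either HepG2 transfection its fit stayed at -1.46 and the call was lost (edgeR adjusted p = 0.102 and 0.0972), and without the second K562 one the fit was -1.06 (edgeR adjusted p = 0.131). Without the first K562 transfection 5 of the 116 were low in K562.

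Where the scrambled version of a site was tested as well, the site could be set against its own scramble. Of the 165 sites 120 had a scramble in the table, and in 75 both were tested. The site was higher than its scramble in 49 of the 75 (65.3%) in HepG2, with a median difference of 0.16, and in 47 (62.7%) in K562, with a median of 0.13. Over all 901 pairs of all classes the site was higher in 63.5% and 58.8%, with medians of 0.16 and 0.11. The 75 pairs were close to the whole set by these measures.

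By the paired test (edgeR, adjusted p under 0.05 over 901 pairs) 21 of the 75 sites (28.0%) were above their scramble in HepG2, where 29.1% of all pairs were, and 3 (4.0%) were below, where 8.44% were. In K562, 8 (10.7%) were above, where 14.9% of all pairs were, and 3 (4.0%) were below, where 4.55% were. Without the first or the second HepG2 transfection 13 were above in HepG2, and in K562 the count was 15 without the first K562 transfection and 5 without the second.

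In HepG2 14 of the 16 active sites with a tested scramble were above it. The largest gap was that of chr12:122851539, 2.75 ± 0.22 (edgeR adjusted p = 1.66e-07), whose scramble had 0.02 and -0.47. It was followed by chr22:24107550 at 2.25 ± 0.38, whose scramble had -0.15 and -1.31, then chr16:87499131 at 1.59 and chr2:72161813 at 1.53. The scramble of chr16:87499131 had -0.33 and -0.37. That of chr2:72161813 had -0.49 and -0.46 and was itself called low in HepG2, so part of both gaps lay in the scramble. Between 0.88 and 1.21 lay chr11:63858713, chr20:39135344, chr21:46388115, chr12:54333570, chr10:14226903, chr10:46962660, chr3:194018296 and chr1:204476229. The scramble of chr10:46962660 itself had 0.61 and 0.56 in HepG2 (edgeR adjusted p = 0.00265), under the scramble percentile, and the gap between site and scramble was 1.01 ± 0.13.

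The remaining pair of active sites above their scramble was chr3:185435115 (0.83) and chr19:48226935 (0.47). The scramble of the latter had 0.54 and 0.40. A further 7 sites were above their scramble in HepG2 without being active: chr17:47938648 (0.70), chr12:48264409 (0.69), chr2:30388043 (0.69), chr15:65107352 (0.68), chr2:63033501 (0.52), chr2:69809023 (0.48) and chr2:48353521 (0.46). At chr2:30388043 the site had 0.14 and 0.23 and its scramble -0.52 and -0.48, so the gap lay largely in the scramble. Without a HepG2 transfection 9 of the 21 lost the call: chr12:48264409, chr15:65107352, chr19:48226935, chr1:204476229, chr2:30388043, chr2:48353521, chr2:63033501, chr2:69809023 and chr3:185435115, at differences between 0.28 and 1.07 and edgeR adjusted p between 0.0766 and 0.338.

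In K562 5 of the 8 active sites with a tested scramble were above it: chr3:185435115 by 1.74 ± 0.24, chr21:46388115 by 1.56 ± 0.13, chr10:46962660 by 0.87, chr2:72161813 by 0.83 and chr2:48353521 by 0.64. The scramble of chr21:46388115 had -0.13 and 0.03 in K562, near 0. The gap of chr3:185435115 drew on a low scramble, at -0.89 and -1.11. Not active but above their scramble were chr1:85990358 (0.77), chr3:194018296 (0.65) and chr17:47938648 (0.35). At chr1:85990358 the site had 0.15 and 0.09, and the scramble had -0.68 and -0.62. Without a transfection chr17:47938648, chr2:48353521 and chr2:72161813 lost the call, at 0.33 to 0.60 and edgeR adjusted p between 0.0633 and 0.133. As in HepG2, the count of active sites above their scramble is not separate support, since both calls use the same libraries. In all, 7 sites were above their scramble in both lines, without a count over all pairs to set beside this number.

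Some scrambles exceeded their site. In HepG2 chr1:112364878 had -0.19 and -0.57 while its scramble had 1.67 and 1.34, a difference of -1.89 ± 0.35 (edgeR adjusted p = 0.000561). That scramble was active in HepG2 by the rule (fit 1.52) and at -0.50 and 0.44 in K562, where the transfections disagreed. At chr5:141061885 the site had -0.18 and -0.32 and its scramble, also active, 0.70 and 0.72, a difference of -0.96 ± 0.10 (edgeR adjusted p = 2.08e-06). The third active scramble in HepG2 belonged to chr4:693274 (fit 0.71), a site that was not tested.

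One pair was reversed in both lines: chr2:39659040 was below its scramble by 0.62 in HepG2 and by 0.80 in K562, with the scramble at 0.43 and 0.69 in HepG2 and 0.51 and 0.62 in K562. In K562 chr2:38875336 had a difference of -1.34 and chr17:25907679 of -0.49. Without a transfection the HepG2 call of chr2:39659040 (differences -0.74 and -0.48, edgeR adjusted p = 0.159 and 0.37) and all 3 K562 calls (-1.34 to -0.46, edgeR adjusted p between 0.0533 and 0.197) were lost in at least one case.

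For the 49 sites with too few tags, a fit without any minimum on DNA reads, which summed all 4 tags of an element, gave a description. In it 5 were active in HepG2 and 3 in K562, where 8.50% and 5.23% of all 3095 elements were. Of the active and low calls of the tested sites in the 2 lines, 15 were lost in this fit and 26 were kept. The median gap between transfections was 0.41 in HepG2 and 1.02 in K562, against 0.15 and 0.23 in the tested sites, so single values are less certain here. Of these sites chr12:124325408 had 2.20 and 2.39 in HepG2 and 1.90 and 2.92 in K562, and chr2:223717076 had 1.97 and 2.16 in HepG2 and 1.75 and 1.69 in K562. Both were called in both lines, at levels in the range of the leading tested sites, and in both one tag held most of the RNA.

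At chr12:124325408 the tag cgacgctag had 1322 and 1162 RNA reads in HepG2, and the other used tag, acgctgata, had 81 and 94. At chr2:223717076 the tag tggttcctg had 1284 and 1616, and actcacaag 603 and 540. In HepG2 alone chr3:24358500 had 2.66 and 2.49, with 0.22 and -0.09 in K562, and chr3:32599309 had 1.56 and 1.91, with 0.15 and 0.43 in K562. The fifth, chr4:141295441, had 4.47 and 0.08 in HepG2. Its RNA in the first transfection came from a tag short of the DNA minimum, ctccgattg, with 2068 and 7 RNA reads on 42 and 6 DNA reads, while its only used tag, aaccggtcg, had 46 and 53 RNA reads on 74 and 82 DNA reads. In K562 the third was chr6:160395198, at 0.89 and 1.51.

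The same spread appears at the shallow end of the tested sites. The widest was chr20:56119942 in K562, at 0.04 and -4.63, with 150 RNA reads in the first transfection and 3 in the second on 171 and 116 DNA reads. It was not called (edgeR adjusted p = 0.734). At chr8:98588927 the K562 values were 0.96 and -0.80 on 603 to 761 DNA reads, and the HepG2 values were 0.96 and 1.24 without a call (edgeR adjusted p = 0.149).

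By position the 165 sites were spread over 22 chromosomes, with 19 on chromosome 1, 16 on chromosome 2 and 16 on chromosome 3. The nearest other site of the table was a median of 355110 bp away. Only 5 had another site within 10 kb, always of another class: chr6:31787416 (1834 bp), chr20:56119942 (2469 bp), chr12:31899861 (3241 bp), chr2:38875336 (4303 bp) and chr1:60015683 (7068 bp). Of these 5, chr12:31899861 and chr1:60015683 were not tested, so they could not be among the active sites. None of the others was active in either line. They are too few to set against the 27 of 116 tested sites that were. No gene, exon or intron was assigned to the positions, since no annotation of their build was used here.

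Set beside the shared sites with polymerase, the class most like it in design, the sites without it had fewer active members in both lines. Of the 150 tested sites with polymerase 55 (36.7%) were active in HepG2 and 49 (32.7%) in K562, against 23 and 13 of 116 here, and 37 were active in both lines against 9. Elements are not replicates and share libraries, so these shares are a description without a test. Median DNA reads per library were 4244 in the class with polymerase and 3072 here. The other classes without polymerase had 14.8% (HepG2-bound, 298 tested) and 8.07% (K562-bound, 161 tested) active in HepG2, and 7.72% and 5.59% in K562. The shared sites without polymerase had the highest shares of the 3 classes without it in both lines, but the exact 95% intervals of the 3 overlapped. The HepG2-bound and K562-bound sites with polymerase had 31.0% and 14.7% active in HepG2, and 7.69% and 22.3% in K562.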

How the data were processed

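The authors deposited 1 table of raw read counts per barcode for 8 libraries, per the file headers, with a class and type for each element. Cutadapt and hg19 are named per the submitters' processing notes, without a version or a role, and no counter or aligner is given in the sources used here. Barcodes with at least 10 reads in all 4 DNA libraries were kept, elements left with 3 or more entered the tests, and their reads were summed. Counts from PCR without molecular identifiers are not independent molecules. The exact intervals treat elements as independent draws and cover only the counting error in the number of elements called.

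Libraries were scaled by TMM on the scrambled elements. All 2332 tested elements were fitted together with edgeR 4.0.16 (quasi-likelihood test, 4 groups of line and nucleic acid, R 4.3.3), with Benjamini-Hochberg adjustment. Active and low calls used adjusted p under 0.05 and the 95th and 5th percentiles of tested scrambles in each line. Line differences were the interaction term. Sites and their own scrambles were compared in a second edgeR fit over 901 pairs. Values per transfection used a pseudocount of 1. The model was checked on simulated counts with independent libraries and the same spread for every element. That check does not cover paired libraries, uneven tags or the wider spread of shallow elements in K562. All elements called active, low, different between lines, or above or below their scramble are named. The sites were taken by their class name alone. That choice and the lists of named sites were made with earlier results of these data known.

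The labels give 2 independent replicate transfections per line, and the DNA and RNA of a number come from the same transfection. Deviations of the paired DNA and RNA libraries from their group means correlated at 0.30 in HepG2 and 0.24 in K562. With 2 libraries a group, the spread behind each p-value was estimated per element over all groups of both lines, and drawn towards that of other elements. A p-value in one line therefore rests also on the libraries of the other. Alternatives were another scaling, DESeq2 1.42.0, other minimums on DNA reads, other ways to combine barcodes, each transfection left out, a replicate block, single-line fits, limma 3.58.1 for pairs and stricter percentiles.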

Additional observations from a re-analysis of the deposited data

Results flagged for a closer look

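The response of 19 sites differed between HepG2 and K562 by the interaction term of the edgeR fit (adjusted p under 0.05 over 2332 elements), and these differences are given here as HepG2 minus K562 in log2 RNA/DNA. Of the sites active in HepG2 only, 10 were among them: chr12:122851539 (2.35), chr22:24107550 (1.91), chr8:21350005 (1.71), chr16:87499131 (1.29), chr12:54333570 (1.27), chr11:63858713 (1.16), chr10:14226903 (1.01), chr20:39135344 (0.912), chr1:204476229 (0.595) and chr9:126690167 (0.55). HepG2 was also higher at chr10:46962660 (0.336), which was active in both lines, and at chr17:49223676 (0.837), chr15:65107352 (0.655) and chr13:97762184 (0.33), which were active in neither.

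K562 was higher at chr21:46388115 (-0.66) and chr4:107208595 (-0.423), both active in both lines, at chr7:97915700 (-0.568), active in K562 only, and at chr1:3585546 (-0.5) and chr1:115299583 (-0.376), active in neither. What underlies these differences was not tested.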

How the results depend on the processing

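Without one transfection in turn (a lone library was then assumed to vary like the other groups) the active count was 14 to 25 in HepG2 (main value 23), 11 in each K562 case (13) and 6 to 8 in both lines (9). Low sites numbered 2 to 4 in HepG2 (4) and 0 to 5 in K562 (1), and line differences 6 to 22 (19). Sites above their scramble numbered 13 to 22 in HepG2 (21) and 5 to 15 in K562 (8), and below it 2 to 6 and 1 to 6 (3 each). Medians were 0.101 to 0.145 in HepG2 and 0.0455 to 0.0548 in K562.

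With the 99th and 1st percentiles, active sites numbered 5 in HepG2, 7 in K562 and 1 in both, and low HepG2 sites 1. With the median over barcodes, 6 were active in K562, 5 in both and 5 differed between lines, 1 was low in HepG2 and 0 in K562 (limma), and the medians were 0.0569 and -0.0482. Without the highest barcode 2 were low in HepG2, 1 was below its scramble there, and the K562 median was 0.10. With at least 50 DNA reads 4 were low in K562 and its median was 0.0651. Without any minimum on DNA reads 15 of the active and low calls of tested sites were lost and 26 kept. That fit also ended 5 of the line differences and 5 of the calls against the scramble. With TMM over all elements 2 were low in K562, and the medians were 0.0247 and 0.00549. In single-line fits 0 were low in K562, and 6 in HepG2 and 1 in K562 were below their scramble. With the replicate block 25 were active in HepG2 and 13 in K562, 17 differed between lines and 11 were above their scramble in K562. It ended no call of a named site other than the 4 line differences given above.

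The HepG2 sign of chr20:34706445 turned when its highest barcode was left out (-0.63) and when barcodes were combined by their median (-0.0538), as did that of chr3:185435115 (-0.0662 and -0.10). The cause of these changes was not tested. Calls kept under all alternatives run numbered 6 of 27 (HepG2) and 6 of 14 (K562) for activity, 5 of 19 for line differences, and 13 of 24 and 4 of 11 for site against scramble. Between the transfections of K562 the median SD was 0.31 in elements below the median DNA depth and 0.092 above it. In HepG2 these values were 0.14 and 0.089. What underlies the wider spread was not tested.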
